A study of Mus musculus with 6 samples.

Results

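The list described here was put together by gene name, with earlier results of these data known. Its members are 41 genes of DNA replication and S phase. They were found among 21936 gene rows in each library, and all 41 passed the filter on low values (1 FPKM or more in 3 or more of the 6 libraries; FPKM are fragments scaled to gene length and library size), which left 12979 genes in all. RNA was sequenced from the whole uterus of pregnant mice aged 6 to 8 weeks, killed on gestational day 4 with the day of the vaginal plug counted as day 1. The labels give Mettl3 f/f for 3 libraries and Mettl3 d/d for the other 3. METTL3 is the methyltransferase that puts N6-methyladenosine on RNA. Alleles flanked by loxP sites are commonly written f, and d after Cre has removed the stretch between them. The Cre driver and the deleted stretch are not in the labels. Nothing says whether replicates came from separate animals, so p-values refer to the spread between libraries, which may be technical. Values by library follow the order of replicates 1, 2 and 3.

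Before S phase, the origin recognition complex, CDC6 and CDT1 load the MCM2-7 helicase onto origins. CDC45, GINS and MCM10 then turn it into a moving helicase that unwinds DNA ahead of the polymerases, while PCNA and its loader RFC hold the polymerases on the template. E2F transcription factors raise many of these genes together at the entry to S phase. In the mouse uterus the dividing compartment moves from the epithelium to the stroma under progesterone at about the time of day 4. In a whole tissue, fewer cells of a type and less RNA per cell cannot be told apart.

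The absolute depth is unknown because the files hold no read numbers. The relative depth, taken from the steps between the lowest values, ran from 0.935 to 1.01 relative to f/f replicate 1. The d/d libraries differed more among themselves than the f/f libraries did. The Spearman correlation over genes was 0.870 to 0.916 within d/d, 0.978 to 0.989 within f/f and 0.850 to 0.921 between the genotypes. Between libraries of a genotype, the median over genes of the SD of log2(FPKM + 1) was 0.301 in d/d and 0.126 in f/f over all genes tested, and 0.218 and 0.126 over the 41 replication genes. Mettl3 itself measured 30.3, 29.8 and 26.3 FPKM in the f/f libraries against 42.9, 30.1 and 46.5 in the d/d libraries (limma adjusted p = 0.202). It was thus no lower with the d/d label than with the f/f label. A value over the whole gene does not check the deletion, and 18.4% of its exon bases are shared with Tox4 on the other strand. Every direction below rests on the labels.

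The letters that E2F factors are known to bind stood in the promoters of many of these genes, which is why a few promoters are shown before the values. RefSeq windows (GRCm38.p6) from 250 bases before to 50 after the annotated start were found for 34 of the 41 genes, 42 windows in all. No window was found for Mcm4, Gins1, Gins2, Gins4, Prim2, Pole and Rfc2. TTTGGCGC, TTTCCCGC, TTTCGCGC or TTTGCCGC, searched on both strands, was present in 35.7% of the 42 windows and in 2.26% of all 32851 windows. CCAAT was present in 61.9% and 37.4% of them, and TTTGAA or TTCGAA in 19.0% and 19.2%. A match describes the letters and not a bound site, and windows were not matched for base composition.

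The E2F letters are in capitals, 5′ to 3′ on the strand of the gene, for the 4 replication genes with such letters that had the lowest p in the comparison of genotypes. The last line shows Chaf1b, the replication gene that passed the test, whose window holds none of the 4. For Mcm6 and Chaf1b the stretch is the 250 bases before the start, at chr1:128359706-128359955 on the minus strand and chr16:93883651-93883900 on the plus strand. For Rfc3 it runs 8 bases past the start, at chr5:151651201-151651458 on the minus strand. For Cdt1 and Lig1 it is the 30 bases around letters that lie after the start, at chr8:122568035-122568064 and chr7:13278841-13278870, both on the plus strand.
Mcm6: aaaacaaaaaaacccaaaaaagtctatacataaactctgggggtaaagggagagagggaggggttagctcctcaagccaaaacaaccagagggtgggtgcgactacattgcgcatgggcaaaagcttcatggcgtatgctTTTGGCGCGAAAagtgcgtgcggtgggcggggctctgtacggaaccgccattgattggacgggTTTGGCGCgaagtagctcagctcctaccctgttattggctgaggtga
Rfc3: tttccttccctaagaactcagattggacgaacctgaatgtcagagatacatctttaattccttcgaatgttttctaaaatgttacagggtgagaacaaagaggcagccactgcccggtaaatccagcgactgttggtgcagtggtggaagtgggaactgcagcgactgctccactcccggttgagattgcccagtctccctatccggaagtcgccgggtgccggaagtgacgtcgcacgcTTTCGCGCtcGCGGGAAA
Cdt1: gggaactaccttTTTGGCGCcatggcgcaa
Lig1: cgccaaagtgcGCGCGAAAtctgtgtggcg
Chaf1b: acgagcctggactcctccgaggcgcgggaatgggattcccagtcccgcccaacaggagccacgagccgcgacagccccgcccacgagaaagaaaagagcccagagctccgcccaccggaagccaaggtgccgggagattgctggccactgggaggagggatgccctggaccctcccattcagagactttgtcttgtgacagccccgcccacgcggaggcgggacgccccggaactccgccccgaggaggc
In Mcm6 the letters TTTGGCGC began 110 and 47 bases before the start, and at the former place they overlapped TTTCGCGC read on the other strand. In Rfc3 TTTCGCGC began 10 bases before the start, and TTTCCCGC on the other strand began at the start itself. Of the 16 genes whose d/d values all lay above the f/f values, 7 of the 13 with a window held E2F letters, against 8 of 21 among the other genes.

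Most replication genes had somewhat higher values in the d/d uteri, but only 1 passed the test over all genes. Chaf1b rose (limma adjusted p = 0.0399), 0 genes fell, and 40 did not pass. Over all 12979 genes 3.49% rose and 3.81% fell (7.3% in either direction), so 1 of 41 is no more than the background. At an unadjusted p under 0.05, 15 of the 41 were higher and 2 were lower (36.6% and 4.88%), against 13.1% and 13.6% of all genes tested. The log2 fold change of d/d over f/f, on the log2(FPKM + 1) scale, was above 0 in 32 of 41 genes (78.0%, against 51.9% of all genes). Its median was 0.25, with a range of -0.37 to 1.43, and the median over all genes tested was 0.02.

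In 16 of the 41 genes (39.0%) all d/d libraries lay above all f/f libraries, and in 3 (7.32%) all lay below, where 18.1% and 17.8% of all genes tested did so. The higher genes were Mcm2, Mcm4, Mcm5, Mcm6, Cdt1, Gins2, Gins4, Mcm10, Rfc3, Fen1, Lig1, Chaf1a, Chaf1b, Uhrf1, E2f1 and E2f2. The lower genes were Pola2, Prim1 and Tyms. For each of these 19 genes an exact two-sided permutation test over libraries gave p = 0.1, the smallest that 3 against 3 libraries allow. With each library scaled to the same total (TPM), the counts were 14 and 4, beside 13.1% and 21.7% of all genes tested, and the median log2 fold change was 0.16, against -0.08 for all genes.

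**Figure D1:**
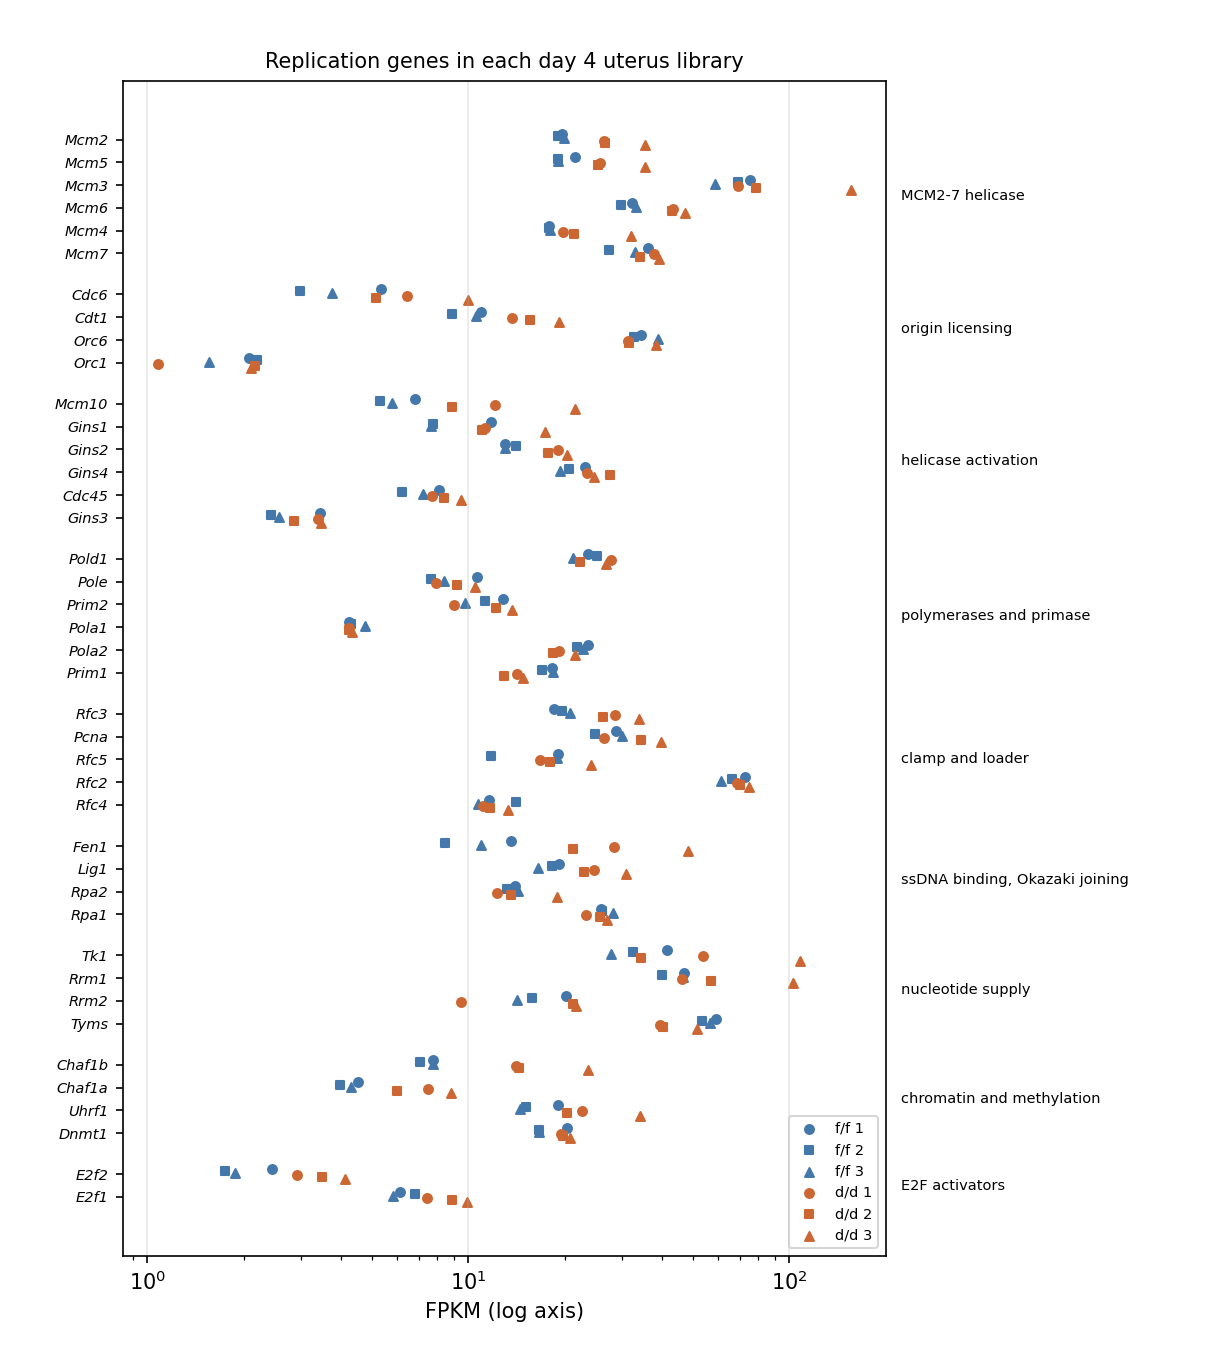
FPKM of the 41 replication genes (log axis) in each of the 3 f/f (blue) and 3 d/d (orange) libraries, 1 point per library, ordered by role in replication. In 16 genes all orange points lie to the right of all blue points, and in Pola2, Prim1 and Tyms all lie to the left.

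The height of the d/d values rested in large part on d/d replicate 3. It had the highest value of the 3 d/d libraries in 38 of the 41 genes, against 5007 of all 12979 genes tested. The exceptions were Gins4, Orc1 and Pold1. In 30 of the 41 it was the highest of all 6 libraries (73.2%, against 29.4% of all genes tested). The median of the 41 genes against the f/f mean was 0.16, 0.24 and 0.54 on the log2 scale in d/d replicates 1, 2 and 3, and 0.09, -0.07 and -0.04 in f/f replicates 1, 2 and 3. All d/d medians were thus above all f/f medians, and those of d/d replicates 1 and 2 lay closer to f/f replicate 1 than to d/d replicate 3. Without d/d replicate 3 the median log2 fold change of the 41 genes was 0.16, and without d/d replicate 1 it was 0.40. Leaving out a library can add genes without overlap but cannot remove any, so the 16 could not become fewer. Without d/d replicate 3 no gene joined the 16 above f/f. Orc6, Pola1 and Rpa1 joined the 3 below f/f, which made 6. Over all genes tested 25.4% lay above and 24.3% below in that comparison of 2 with 3 libraries.

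**Figure D2:**
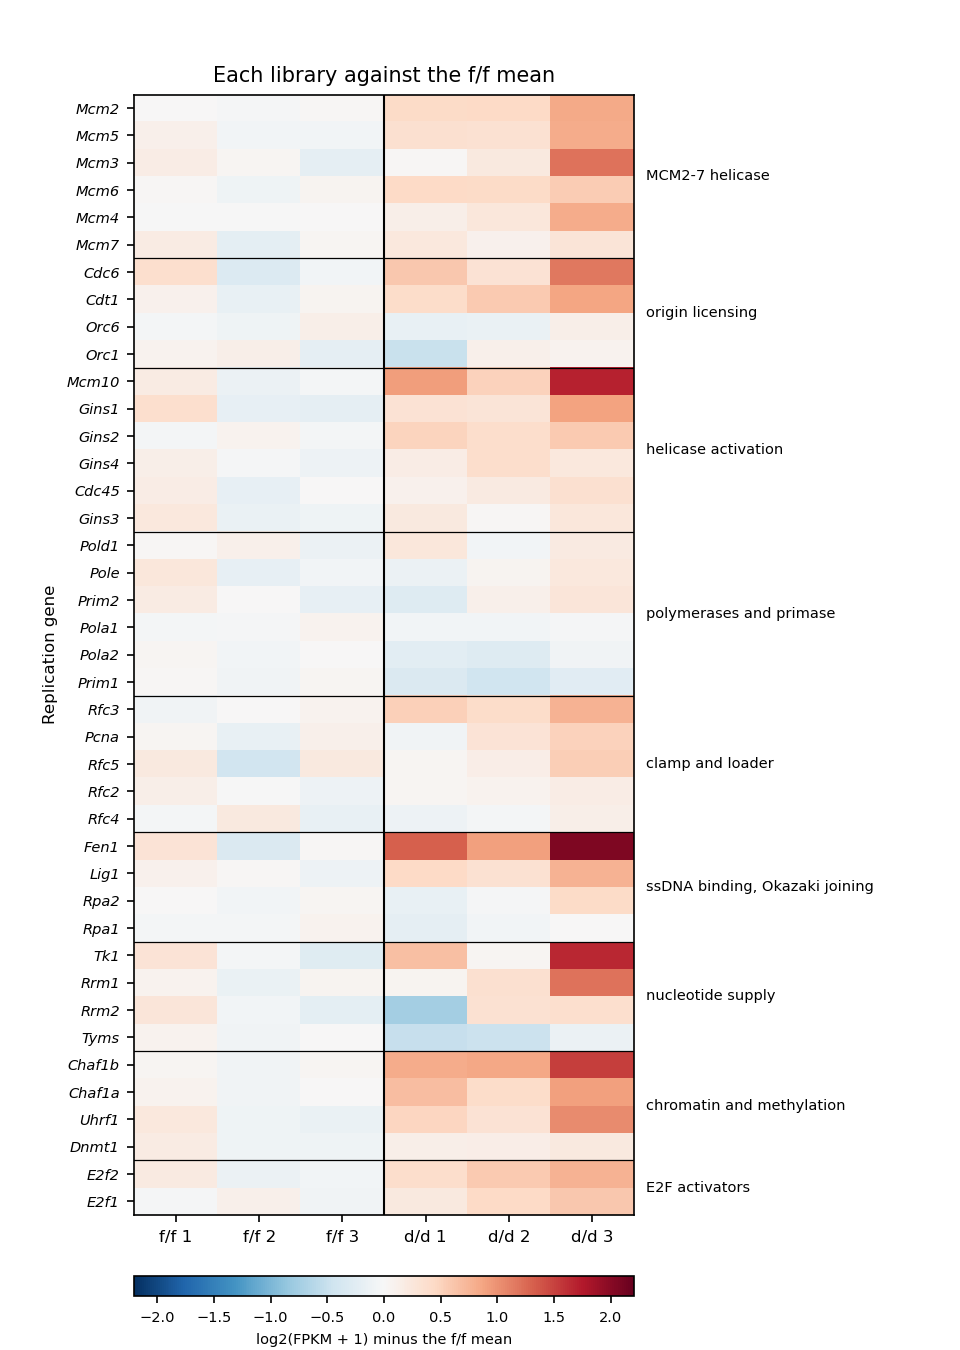
Each cell is log2(FPKM + 1) of a replication gene (row) in a library (column) minus the f/f mean of that gene. Among the d/d columns replicate 3 holds the highest value for 38 of 41 genes, and the polymerase and primase rows stay pale or blue.

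The MCM2-7 helicase, the ring of 6 related subunits that opens the DNA, had all 6 genes on the higher side, with a median log2 fold change of 0.48, and none passed. Mcm6 (chromosome 1, 128331590 to 128359664) measured 32.3, 29.8 and 33.3 FPKM in the f/f libraries against 43.4, 43.0 and 47.3 in the d/d libraries. The d/d libraries were close together and all lay above f/f, with a ratio of means of 1.40 and a log2 fold change of 0.48 (adjusted p = 0.0537 with limma, SE 0.11, 95% interval 0.21 to 0.74). Mcm2 measured 19.6, 19.0 and 19.8 FPKM in the f/f libraries against 26.4, 26.6 and 35.4 in the d/d libraries (log2 fold change 0.56, adjusted p = 0.0743 with limma), and Mcm5 had a log2 fold change of 0.50. Mcm4 was nearly level in f/f, at 17.8 to 17.9 FPKM, and at 19.7, 21.3 and 32.0 in d/d. Mcm3, the most abundant replication gene per length in f/f (67.8 ± 8.57 FPKM, SD, n = 3), measured 75.4, 69.4 and 58.5 FPKM in the f/f libraries against 69.0, 78.5 and 155 in the d/d libraries. Its log2 fold change was 0.48 with all libraries and 0.13 without d/d replicate 3. Mcm7, at 27.5 to 36.4 and 34.3 to 39.3 FPKM, overlapped between the genotypes.

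None of the 4 genes that prepare origins passed, and their median log2 fold change was 0.27. The products of Cdt1 and Cdc6 load the helicase at the origin complex. Cdt1 (chromosome 8, 122568015 to 122573554) measured 10.9, 8.91 and 10.6 FPKM in the f/f libraries against 13.7, 15.6 and 19.2 in the d/d libraries. The genotypes did not overlap. Its log2 fold change of 0.61 did not pass (adjusted p = 0.0782 with limma, SE 0.17, 95% interval 0.21 to 1.02). Cdc6 had a larger log2 fold change of 0.69, but f/f replicate 1, at 5.35 FPKM, lay above d/d replicate 2, at 5.17. Orc6, an origin complex subunit, measured 34.4, 32.8 and 38.9 FPKM in the f/f libraries against 31.4, 31.6 and 38.4 in the d/d libraries, so its groups overlapped. Orc1, the lowest of the 41 genes in f/f, was at 1.95 ± 0.341 FPKM there and at 1.78 ± 0.610 in d/d (SD, n = 3).

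The genes that activate the helicase, namely Cdc45, Mcm10 and those of the 4 GINS subunits, were all on the higher side (median log2 fold change 0.37) and none passed. Mcm10, whose product is needed to start unwinding (chromosome 2, 4989714 to 5012791), measured 6.83, 5.31 and 5.77 FPKM in the f/f libraries against 12.1, 8.89 and 21.4 in the d/d libraries. All d/d libraries lay above f/f but far apart, and the log2 fold change of 1.04 had an SE of 0.31 (limma adjusted p = 0.0938, ratio of means 2.37). Gins2 measured 13.0, 14.1 and 13.0 FPKM in the f/f libraries against 19.0, 17.7 and 20.3 in the d/d libraries (log2 fold change 0.48, adjusted p = 0.0645 with limma, SE 0.12). This gene shares 67.3% of its exon bases with Gse1 on the other strand, and reads there could belong to either gene, since use of strand is not stated. Gse1 measured 5.54 to 7.39 FPKM in the f/f libraries against 5.26 to 9.63 in the d/d libraries. Gins4 measured 23.1, 20.6 and 19.3 FPKM in the f/f libraries against 23.5, 27.6 and 24.6 in the d/d libraries, so the lowest d/d value lay just above the highest f/f value. GINS is built from 1 copy of each subunit, yet the mean FPKM of its genes in f/f ran from 2.81 for Gins3 to 21.0 for Gins4.

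Polymerase and primase genes did not share the higher values, with a median log2 fold change of -0.01 over 6 genes. Prim1, the catalytic primase subunit gene that makes the RNA primers (chromosome 10, 128015168 to 128030037), measured 18.2, 16.9 and 18.4 FPKM in the f/f libraries against 14.2, 12.9 and 14.8 in the d/d libraries. All d/d values lay below f/f, with a log2 fold change of -0.33 (SE 0.12, 95% interval -0.62 to -0.05) that did not pass (limma adjusted p = 0.139). Pola2, the regulatory subunit gene of polymerase alpha, was also lower without overlap, at 21.8 to 23.5 FPKM in f/f and 18.4 to 21.5 in d/d (log2 fold change -0.20, limma adjusted p = 0.325). Pola1, for the catalytic subunit of the same complex, was at 4.24 to 4.76 and 4.24 to 4.35 FPKM. Pold1, for the lagging strand polymerase delta, was the most abundant of the 6 over all libraries, at 23.6, 25.1 and 21.1 FPKM in f/f and 27.8, 22.3 and 26.8 in d/d. Pole and Prim2 had log2 fold changes of 0.05 and 0.03, which turned below 0 under TPM scaling.

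Of the sliding clamp PCNA and 4 subunits of its loader, 1 gene differed without overlap. Rfc3 (chromosome 5, 151642756 to 151651242) measured 18.5, 19.6 and 20.7 FPKM in the f/f libraries against 28.6, 26.3 and 33.9 in the d/d libraries. Its log2 fold change was 0.57 (adjusted p = 0.0598 with limma, SE 0.14, 95% interval 0.24 to 0.89). Rfc2, the most abundant loader gene, measured 72.5, 66.1 and 61.0 FPKM in the f/f libraries against 68.7, 70.1 and 74.6 in the d/d libraries, values that overlapped. Pcna measured 28.8, 24.8 and 30.1 FPKM in the f/f libraries against 26.4, 34.5 and 39.9 in the d/d libraries, so d/d replicate 1 stood inside the f/f range (log2 fold change 0.25, 95% interval -0.19 to 0.68). Rfc4 and Rfc5 had log2 fold changes of -0.01 and 0.24. Pcna has 2 annotated pseudogenes named after it, so its value is uncertain. Rfc2, Rfc4 and Rfc5 share 15.1%, 12.7% and 10.7% of their exon bases with Lat2, Eif4a2 and Wsb2 on the other strand. Their values are uncertain too, since use of strand is not stated. Eif4a2 measured 303 to 310 FPKM in f/f and 243 to 300 in d/d. Lat2 was at 5.46 to 9.41 and 4.15 to 28.6, and Wsb2 at 33.5 to 42.5 and 39.2 to 52.3.

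On the lagging strand, FEN1 cuts the flap off each Okazaki fragment and LIG1 seals the nick. Fen1 (chromosome 19, 10199132 to 10204169) had the largest difference of the 41 genes. It measured 13.6, 8.47 and 11.0 FPKM in the f/f libraries against 28.3, 21.1 and 48.3 in the d/d libraries. The ratio of means was 2.96 and the log2 fold change 1.43 (SE 0.32, 95% interval 0.65 to 2.21), which missed the threshold (limma adjusted p = 0.0515). Gm10143, an antisense gene not analysed here, covers 78.8% of its exon bases, so the value of Fen1 is uncertain since use of strand is not stated. Tmem258, also on the other strand, shares 5.37% of them. It measured 113, 106 and 102 FPKM in the f/f libraries against 84.4, 108 and 163 in the d/d libraries. Lig1 (chromosome 7, 13277283 to 13311433) measured 19.1, 18.2 and 16.5 FPKM in the f/f libraries against 24.7, 23.0 and 31.0 in the d/d libraries (log2 fold change 0.51, limma adjusted p = 0.0923). The genes of the single-strand binding protein RPA did not follow. Rpa1, the most abundant of these 4 genes, measured 25.9, 26.0 and 28.2 FPKM in the f/f libraries against 23.3, 25.6 and 27.0 in the d/d libraries, and Rpa2 was at 13.2 to 14.3 and 12.3 to 18.8.

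None of the 4 nucleotide supply genes passed, and their median log2 fold change was 0.26. Tyms, for the thymidylate synthase that makes dTMP (chromosome 5, 30058202 to 30073617), measured 59.2, 53.3 and 56.5 FPKM in the f/f libraries against 39.4, 40.3 and 51.5 in the d/d libraries. All d/d values were lower, with a log2 fold change of -0.37 (adjusted p = 0.161 with limma, SE 0.14). Without d/d replicate 3 it was -0.49 and passed (limma adjusted p = 0.0486). Tyms was the only replication gene that passed as lower in that comparison, where 3.69% of all genes did. Tyms has an annotated pseudogene, so its value is uncertain. Tk1, for the thymidine kinase that salvages thymidine, measured 41.7, 32.5 and 27.9 FPKM in the f/f libraries against 53.9, 34.6 and 108 in the d/d libraries (log2 fold change 0.79, adjusted p = 0.273 with limma, SE 0.41). Rrm1, for the large subunit of ribonucleotide reductase, measured 47.1, 40.1 and 46.5 FPKM in the f/f libraries against 46.3, 57.0 and 103 in the d/d libraries, where replicate 1 stood inside the f/f range and replicate 3 far above it. Rrm2, for its small subunit, measured 20.2, 15.8 and 14.2 FPKM in the f/f libraries against 9.45, 21.2 and 21.6 in the d/d libraries, where replicate 1 was the lowest of all libraries.

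The chromatin assembly genes held the call. CHAF1A and CHAF1B are the subunits of CAF-1 that place new histones behind the fork. Chaf1b (chromosome 16, 93883901 to 93906115) measured 7.76, 7.08 and 7.75 FPKM in the f/f libraries against 14.1, 14.4 and 23.6 in the d/d libraries. The lowest d/d library was well above the highest f/f library, with a ratio of means of 2.30 and a log2 fold change of 1.07 (adjusted p = 0.0399 with limma, SE 0.22, 95% interval 0.54 to 1.59). The call was lost when any f/f library was left out (limma adjusted p = 0.136 to 0.167, log2 fold change 1.03 to 1.09), and so were most calls over all genes. It was also lost without the filter on low values (limma adjusted p = 0.0610). It held without each d/d library, with a log2 fold change of 0.84 without d/d replicate 3 (limma adjusted p = 0.0282). Chaf1a measured 4.54, 3.98 and 4.30 FPKM in the f/f libraries against 7.46, 5.98 and 8.81 in the d/d libraries (log2 fold change 0.66, adjusted p = 0.0726 with limma, SE 0.17). It shares 52.5% of its exon bases with Ubxn6 on the other strand, which had lower values in d/d (19.5 to 30.0 FPKM against 31.8 to 37.9).

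Uhrf1 and Dnmt1 act together to copy DNA methylation onto the new strand. Uhrf1 measured 19.0, 15.1 and 14.5 FPKM in the f/f libraries against 22.6, 20.2 and 34.2 in the d/d libraries (log2 fold change 0.61, adjusted p = 0.149 with limma, SE 0.22). Dnmt1 overlapped, at 16.6 to 20.2 FPKM in f/f and 19.4 to 20.6 in d/d, with a log2 fold change of 0.16 (95% interval -0.15 to 0.47). The activators E2f1 and E2f2 were low per length and higher in every d/d library. E2f1 measured 6.13, 6.81 and 5.83 FPKM in the f/f libraries against 7.45, 8.86 and 9.87 in the d/d libraries (log2 fold change 0.42, limma adjusted p = 0.149). E2f2 measured 2.45, 1.75 and 1.88 FPKM in the f/f libraries against 2.93, 3.50 and 4.13 in the d/d libraries (log2 fold change 0.58, limma adjusted p = 0.108).

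**Figure D3:**
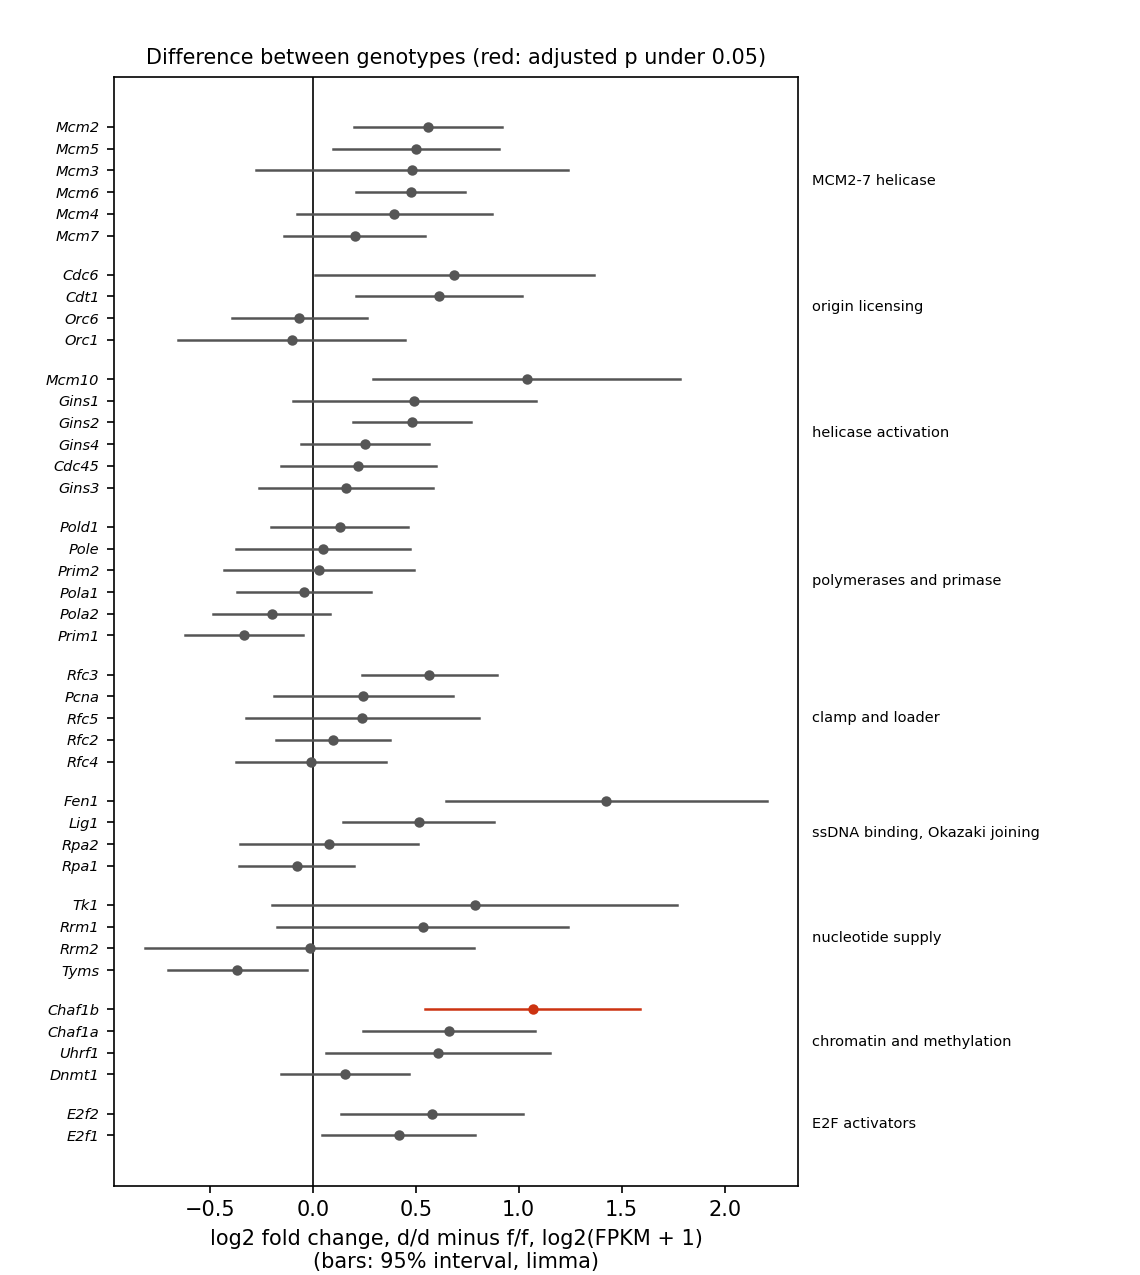
Log2 fold change (d/d minus f/f, log2(FPKM + 1) scale) of each of the 41 genes with its 95% interval from limma, by role. Chaf1b, in red at 1.07, is the gene with an adjusted p under 0.05, and the interval of Fen1 runs from 0.65 to 2.21.

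Without d/d replicate 2, 32 of the 41 genes had a log2 fold change above 0, against 51.3% of all genes. Of the 41, 5 passed as higher (limma adjusted p under 0.05), where 5.62% of all genes did. The 5 that passed were Chaf1a, Chaf1b, Fen1, Mcm10 and Rfc3. Without f/f replicates 1, 2 or 3, 0 of the 41 genes were called with limma. In these fits 15, 10 and 9 (36.6%, 24.4% and 22.0%) had an unadjusted p under 0.05 in either direction. Over all genes tested the shares in the same fits were 17.7%, 17.4% and 19.0%. Without d/d replicates 1, 2 or 3 the shares were 43.9%, 36.6% and 36.6% of the 41, against 29.9%, 30.1% and 29.7% of all genes. With all libraries they were 41.5% and 26.7%.

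Other genes of the same machinery and of the cell cycle were taken from 5 lists that the 41 genes do not share. Over these 5 lists together, mitosis genes included, 4 of 91 tested genes rose and 0 fell. Over all genes tested 3.49% rose and 3.81% fell. Of 31 tested replisome and licensing genes, 1 rose, 0 fell and 30 did not pass, and the median log2 fold change was 0.12. Dbf4, for the activator of the CDC7 kinase that fires origins (chromosome 5, 8396973 to 8422716), rose. It measured 11.2, 10.4 and 10.4 FPKM in the f/f libraries against 23.7, 20.6 and 39.0 in the d/d libraries (log2 fold change 1.25, limma adjusted p = 0.0363). Cdc7 itself measured 9.04 to 10.3 FPKM in the f/f libraries against 7.41 to 10.8 in the d/d libraries, a range that encloses it. Ticrr, for a factor that helps CDC45 onto the helicase, had a log2 fold change of 0.82 (limma adjusted p = 0.0618), Pold3 of 0.44 and Mcm9, for a helicase used in repair, of -0.63 (limma adjusted p = 0.0839 and 0.0861).

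Of 11 other nucleotide and histone supply genes, 1 rose, 0 fell and 10 did not pass (median log2 fold change 0.27). Hells, for a chromatin remodeller needed for DNA methylation (chromosome 19, 38930915 to 38971051), rose from 4.08, 3.85 and 3.92 FPKM to 6.74, 6.67 and 7.49 (log2 fold change 0.68, limma adjusted p = 0.0366). Both groups were tight and did not overlap. The histone chaperone gene Asf1b had a log2 fold change of 0.85 (limma adjusted p = 0.106). Slbp, for the protein that binds histone mRNA, had a log2 fold change of 0.28, and Rrm2b, for the alternative small reductase subunit, of -0.37.

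Of 17 E2F and pocket protein genes none passed (median log2 fold change 0.13). Dtl, for a subunit of the ligase that destroys CDT1 in S phase, had a log2 fold change of 0.73, Tfdp2, for an E2F partner, of -0.56, E2f3 of 0.42 and E2f8 of 0.66 (limma adjusted p = 0.0751, 0.0825, 0.101 and 0.119).

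Of 12 replication stress and damage genes, 2 rose, 0 fell and 10 did not pass (median log2 fold change 0.43). Exo1, for an exonuclease of mismatch repair and fork processing (chromosome 1, 175880581 to 175913489), measured 6.58, 3.97 and 4.49 FPKM in the f/f libraries against 45.0, 19.7 and 53.5 in the d/d libraries. Its log2 fold change of 2.66 (limma adjusted p = 0.0216) was larger than that of any of the 41 replication genes, and the groups were far apart. Cdkn1a, for the inhibitor p21 that binds CDK2 and PCNA, rose from 10.5, 10.5 and 9.26 FPKM to 20.4, 53.8 and 32.5 (log2 fold change 1.62, limma adjusted p = 0.0408). The calls of Dbf4, Hells, Exo1 and Cdkn1a were all lost when any f/f library was left out, and those of Dbf4, Hells and Cdkn1a also without the filter (limma adjusted p = 0.0553, 0.0651 and 0.0632). That of Hells was lost under TPM scaling and with weights per genotype (limma adjusted p = 0.0685 and 0.0517), and that of Cdkn1a without d/d replicate 3 (limma adjusted p = 0.0711). Wee1, a kinase gene that delays mitosis, had a log2 fold change of -0.66 and Brca1 of 0.59 (limma adjusted p = 0.0837 and 0.0963).

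**Figure D4:**
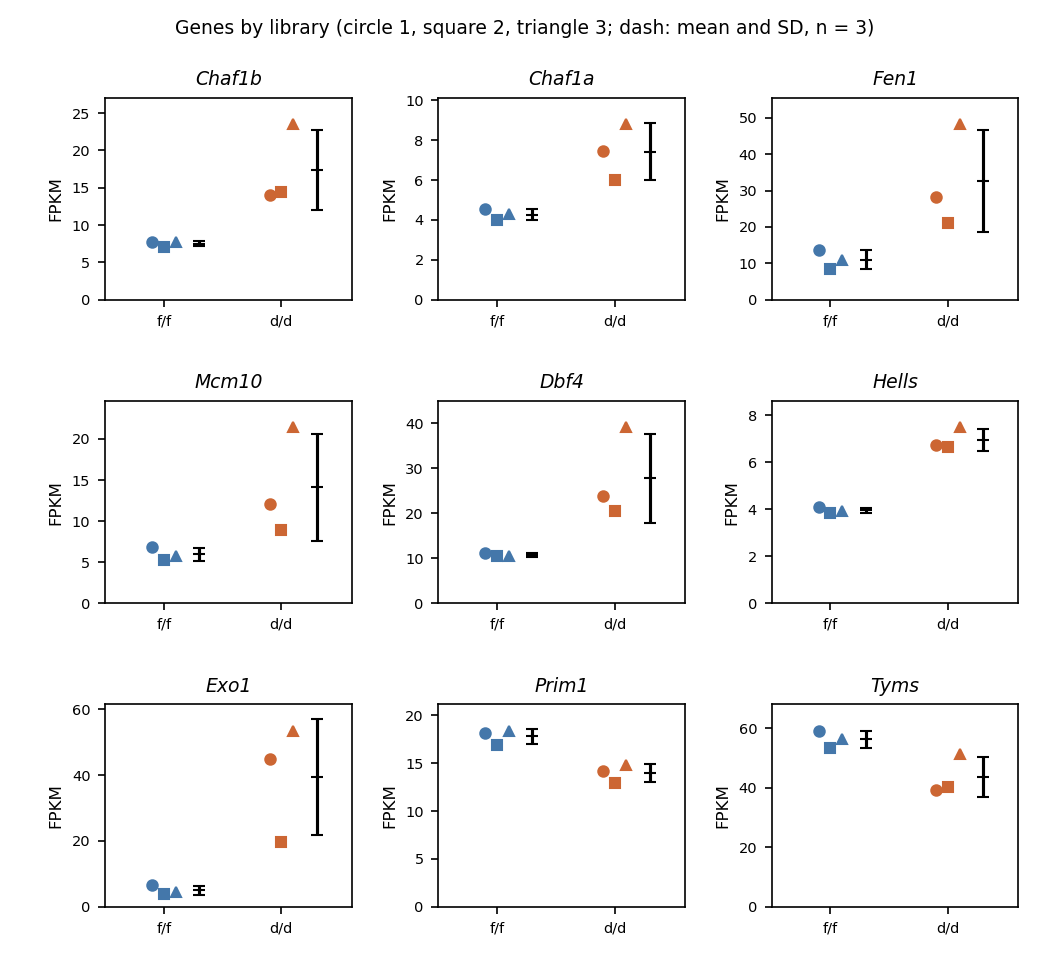
FPKM of Chaf1b, Chaf1a, Fen1, Mcm10, Dbf4, Hells, Exo1, Prim1 and Tyms in each library (circle, square and triangle for replicates 1, 2 and 3), with the mean and SD of each genotype (n = 3). Every panel shows groups that do not overlap, higher in d/d for all but Prim1 and Tyms.

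Mitosis genes had their highest d/d values in replicate 3 and mostly overlapped between the genotypes. All 20 had a log2 fold change above 0, against 51.9% of all genes tested. With limma 0 passed (0 at an unadjusted p under 0.05). Only Kif23 (5% of the 20) had d/d libraries all above f/f, against 18.1% of all genes tested. The median of the 20 mitosis genes against the f/f mean was 0.33, -0.14 and -0.19 in f/f replicates 1, 2 and 3. It was 0.11, 0.06 and 0.73 in d/d replicates 1, 2 and 3. F/f replicate 1 thus lay above d/d replicates 1 and 2, which it did not for the replication genes. The difference between the 2 lists was not tested. Mki67, a marker of cycling cells, measured 17.5, 12.0 and 12.1 FPKM in the f/f libraries against 16.0, 15.1 and 26.5 in the d/d libraries.

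Markers of cell types also moved between libraries, and their part in these values was not tested. Beside the counts below, 3.49% of all genes tested passed as higher in d/d and 3.81% as lower. Of 10 luminal and shared epithelium markers 3 were higher in d/d. Calb1 and Krt18 lay on the other side without passing (log2 fold change -4.48 and -0.05). Calb1 measured 304, 260 and 294 FPKM in the f/f libraries against 202, 4.54 and 0.882 in the d/d libraries. The list had medians against the f/f mean of 0.99, -0.20 and 1.57 in d/d replicates 1, 2 and 3. Its summed level was 1037 to 1261 FPKM in f/f and 837 to 2872 in d/d. Stroma markers, with 3 of 10 (Hoxa10, Hoxa11 and Hand2) lower and Lum, Dcn and Col1a1 on the other side without passing (log2 fold change 0.98, 0.62 and 0.15), had medians of -1.34, -0.33 and -1.45 and sums of 2936 to 3105 and 1647 to 3858 FPKM. Myeloid markers, with 1 of 9 (Cd68) higher, had medians of 1.24, 3.51 and -0.32 and sums of 259 to 382 and 331 to 5412 FPKM. The library with the highest replication values was thus also the one with the highest epithelial median and, among the d/d libraries, the highest smooth muscle median, while the myeloid and lymphocyte markers were highest in d/d replicate 2.

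Of the other marker lists, 2 of 5 tested gland markers (Spink1 and Ttr) were lower, with sums of 58.1 to 82.0 FPKM in f/f and 17.1 to 62.7 in d/d. Of 8 smooth muscle markers 1 (Smtn) was lower, with medians of -1.88, -0.92 and 0.34 in d/d and -0.02, 0.56 and -0.50 in f/f (sums 2494 to 5968 and 1122 to 4761 FPKM), and of 8 endothelium markers 1 (Cdh5) was lower (380 to 586 and 223 to 418). Of 6 tested NK and lymphocyte markers none passed (sums over all 10 of 36.6 to 51.3 and 7.53 to 122 FPKM). The NK cell genes Ncr1, Klrb1c and Nkg7 had all d/d values below all f/f values, where 17.8% of all genes tested did so. The other 3 overlapped, with a log2 fold change above 0. All of these lists were detected in every library of this whole tissue.

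**Figure D5:**
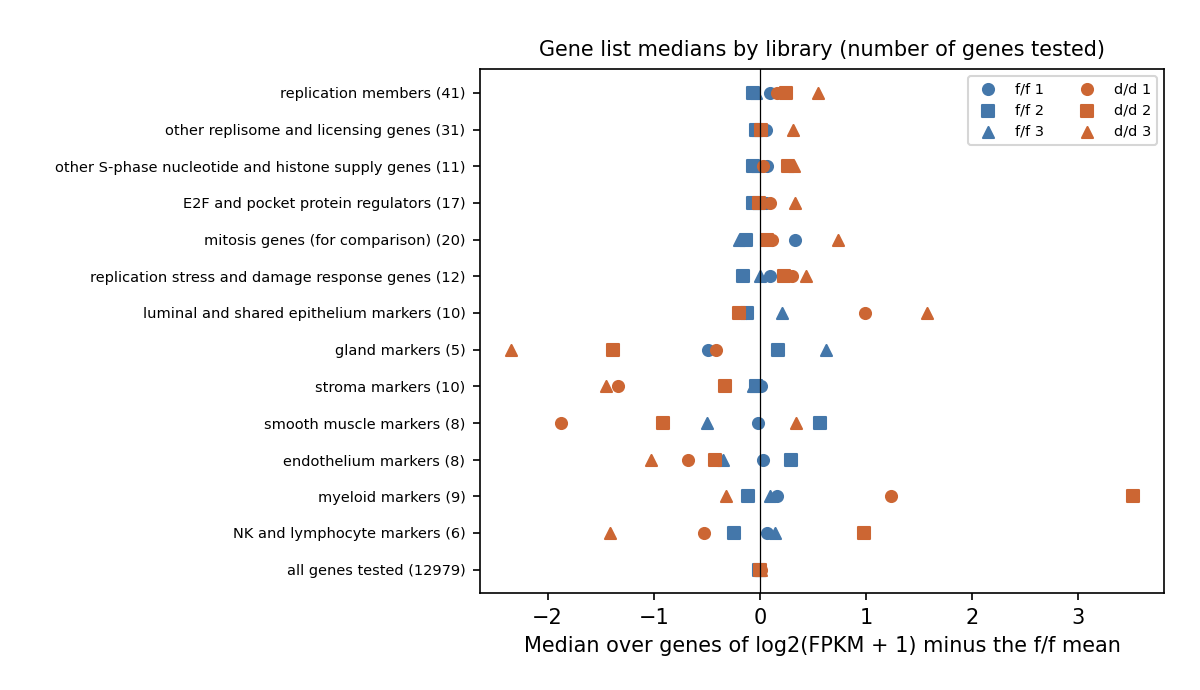
Median over the genes of each list of log2(FPKM + 1) minus the f/f mean, 1 point per library, f/f in blue and d/d in orange. The replication genes run from -0.07 to 0.54, the mitosis genes from -0.19 to 0.73, the myeloid markers reach 3.51 in d/d replicate 2, and the median of all genes tested stays near 0.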

How the data were processed

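Whole uterus RNA was sequenced in 6 libraries, 3 labelled Mettl3 f/f and 3 Mettl3 d/d. TRIzol extraction and TruSeq library preparation are stated per the labels' protocols. The tools listed, per the submitters' processing notes, are HISAT2 2.2.1 and Cufflinks 2.2.1, with mm9 as well as mm10 among the builds. How these were run, on which annotation and whether by strand is not given in the sources. The values were taken as FPKM as the authors deposited them. This unit was inferred from decimals and unequal totals, since the file headers name none, so depth is unknown and no counting interval is given.

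Of rows sharing a symbol the one with the highest mean was kept (36 removed). Values were tested as log2(FPKM + 1), a scale that understates the change of low genes, with limma 3.58.1 in R 4.3.3 (intensity trend, two-sided, Benjamini-Hochberg over 12979 genes, called at an adjusted p under 0.05). Tested on simulated data with the spread of these libraries, the fit gave a larger share of false calls than the nominal rate and missed most changes as small as those of most of the 41 genes, so a gene that did not pass may still differ and a single call may be false. The 41 genes and all lists were chosen with earlier results of these data known. Values by library are given by rule for genes with an adjusted p under 0.05, the 6 lowest p, and in each role the most abundant gene and the one with the lowest p. Those of Mcm2, Mcm4, Mcm10, Lig1, Pcna, Tk1, Rrm2 and Mki67 were added after they were seen. From other lists up to 4 genes were named by p, and the epithelial markers that passed are not reported here by name. Cdc7, Krt18, Lum, Dcn, Col1a1 and the genes sharing exons were named outside this rule. Ensembl IDs were matched to GENCODE M21 (GRCm38) for positions and exon overlaps. Pseudocounts of 0.1 and 0.5, no filter, median and TPM scaling, weights per genotype, no trend, a replicate block and leaving out each library were the alternatives. The scaled and left-out versions of the overlap counts were added after the data were seen.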

Additional observations from a re-analysis of the deposited data

How the results depend on the processing

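The median log2 fold change of the 41 genes stayed above 0 under every alternative run. It was 0.16 to 0.40 with 1 library left out. The number of replication genes that rose was 1 with all libraries, 0 without the filter and 0 with a replicate block, and 0 to 5 with 1 library left out. The number that fell was 0 and reached 1 with 1 library left out. Over all genes, 453 rose and 494 fell. Without the filter 291 rose. With the replicate block 51 rose and 49 fell. With 1 library left out 0 to 729 rose and 0 to 748 fell, with 0 of either without f/f replicate 1. Of the genes in the other 5 lists 4 rose, 1 without the filter, 1 with the replicate block and 0 without any 1 f/f library; 0 fell, and 0 to 1 with 1 library left out. The replication genes without overlap numbered 16 to 24 higher and 3 to 6 lower with 1 library left out. The shares of all genes tested were 20.4% to 25.4% and 19.9% to 24.8%. Leaving out a library cannot lower these counts below 16 and 3, so they do not measure stability. The count of 24 came without f/f replicate 1 and the count of 6 when d/d replicate 3 was dropped. The median over all genes tested was 0.02, and it was 0.0182 with a pseudocount of 0.1, 0.0104 without the filter, 0.0156 with median scaling, -0.0769 with TPM scaling and 0.00579 to 0.0304 with 1 library left out.

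Values near 0 changed sign. With TPM scaling Pole, Prim2, Rfc2 and Rpa2 were at -0.0454, -0.0689, -0.00378 and -0.0188. With 1 library left out the ranges were -0.208 to 0.0946 for Orc1, -0.158 to 0.00275 for Orc6, -0.0400 to 0.172 for Pole, -0.0884 to 0.185 for Prim2, -0.0871 to 0.0957 for Rfc4, -0.0914 to 0.197 for Rpa2 and -0.205 to 0.351 for Rrm2. None of these passed in any version. The cause was not tested.

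Across genotypes the deviations of same-numbered libraries correlated at -0.02, 0.02 and -0.02, and those of differently numbered libraries at -0.141 to 0.125. With so few libraries these values cannot decide whether the same replicate number pairs libraries. With the replicate block Chaf1b had the same log2 fold change and an adjusted p of 0.0878.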

Other observations

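The f/f libraries also differed among themselves in S-phase and mitosis genes. For the 41 replication genes the median SD on the log2 scale was 0.126 in f/f and 0.218 in d/d. F/f replicate 1 had the highest f/f value in 26 of the 41 replication genes, 10 of the 11 other nucleotide and histone supply genes and 19 of the 20 mitosis genes, against 3958 of all 12979 genes tested. Top2a, for the topoisomerase that frees sister chromatids, measured 98.0, 84.3 and 58.5 FPKM in the f/f libraries against 71.0, 73.9 and 97.6 in the d/d libraries. The pattern was noticed in these data and not tested, and Top2a was chosen after its values were seen.

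Genes for proteins that work in fixed numbers per complex were not level with each other. In f/f the mean FPKM of the MCM2-7 genes ran from 17.9 for Mcm4 to 67.8 for Mcm3, and that of the polymerase alpha and primase genes from 4.44 for Pola1 to 22.7 for Pola2. FPKM depends on the gene model used for length, which the sources do not state.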
